A study of Mus musculus with 6 samples.

Results

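The interleukin-1 (IL-1) family genes of the dataset were 10 of the 17830 genes in the deposited count table, chosen by symbol alone: the agonists Il1a, Il1b, Il18 and Il33, the antagonist Il1rn, the decoy receptor Il1r2, and the receptor subunits Il1r1, Il1rl1, Il1rl2 and Il1rap. They were measured by bulk RNA sequencing in 6 libraries of tdTomato-positive cells labelled as osteoblasts, grown out from calvarial bone fragments of mice aged 6 months and sorted by flow cytometry. The 3 control libraries came from mOCN-Cre; Ai9 mice and the 3 APPswe libraries from TgAPPswemOCN-Cre; Ai9 mice. Both groups carried the mOCN-Cre allele, in which Cre is knocked into the endogenous osteocalcin gene Bglap, and the Ai9 reporter, which makes tdTomato in every cell where Cre has acted and in all its progeny. The APPswe mice carried in addition a human APP695 transgene with the Swedish mutation, driven by the CAG promoter and silent until Cre removes a stop cassette. The study's supplementary figure legend for this experiment describes the mice as male. The labels do not say whether the libraries of a group came from separate animals or cultures, so the p-values measure only the spread between these libraries.

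IL-1 family cytokines act through pairs of related receptor chains. IL-1α (Il1a) and IL-1β (Il1b) bind the receptor encoded by Il1r1, which then recruits the accessory chain encoded by Il1rap and signals through MyD88 and IRAK kinases to NF-kB and MAP kinases. The antagonist encoded by Il1rn occupies the same receptor without signalling, and the receptor encoded by Il1r2 binds IL-1 but lacks a signalling domain. IL-33 uses Il1rl1 (ST2) and IL-36 cytokines use Il1rl2, both with Il1rap, whereas IL-18 uses Il18r1 and Il18rap. In bone, IL-1 is known to act on osteoblast-lineage cells to raise RANKL, the main inducer of osteoclast formation, and macrophages are a classical source of IL-1β and of its antagonist.

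The libraries held 17263757 to 18398392 counts, at which 3 counts, taken as the floor of detection, correspond to 0.167 to 0.173 CPM (counts scaled to a common library size after TMM normalization). This floor covers counting error only, whereas the 95% intervals of fold changes given below come from edgeR's test and include the spread between libraries. Control replicate 2 stood apart from the other control libraries on the component that held 35.2% of the variance of log2 CPM, the first component (58.3%) separating the genotypes. Summed CPM of 4 Y-linked genes was 0.11 in control replicate 2 and 127 to 197 in the other 5 libraries, although the study's legend describes the mice as male. The library name of control replicate 2 (Ctrl-S) holds an S where the other names hold an L. The labels do not explain these letters. The osteoblast genes Bglap (osteocalcin) and Ibsp (bone sialoprotein) were at 0.06 and 0.17 CPM in control replicate 2, against 6.45 to 11.5 and 52.5 to 84.8 CPM in the other libraries. Sp7, Alpl, Bglap2, Dmp1, Pth1r, Phex and Spp1 were also lowest there among the controls. Other osteoblast markers went the other way. Runx2 (27.9 CPM), Col1a1 (5705 CPM) and Col1a2 (5732 CPM) were highest there among the controls, against 18.3 to 19.9, 4081 to 4746 and 4383 to 4780 CPM. Markers of other cell types were also present. The 14 macrophage markers summed to 18588 to 25590 CPM in control and 12909 to 13947 CPM in APPswe libraries. Most of that sum was the single gene Lyz2, at 9772 to 16084 CPM in control and 7148 to 7879 CPM in APPswe libraries. With Lyz2 included, the sum exceeded that of the 12 osteoblast markers in every library (17566 to 18849 CPM in control and 11644 to 12284 CPM in APPswe, mostly from collagen I genes and Spp1). In APPswe libraries the sums were higher for 8 osteoclast markers (719 to 731 against 158 to 290 CPM) and 7 skeletal muscle markers (119 to 124 against 2.08 to 9.05 CPM). The sum of 7 fibroblast markers was also higher (5562 to 5703 against 1538 to 3185 CPM, mostly from Col3a1). That of 6 endothelial markers was lower (23.9 to 25.6 against 81.8 to 243 CPM). In these bulk libraries more cells of a type and more RNA per cell cannot be told apart, and the part of these cell types in any result that follows was not tested. Because control replicate 2 differs in this way, results are given with it and without it.

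**Figure D1:**
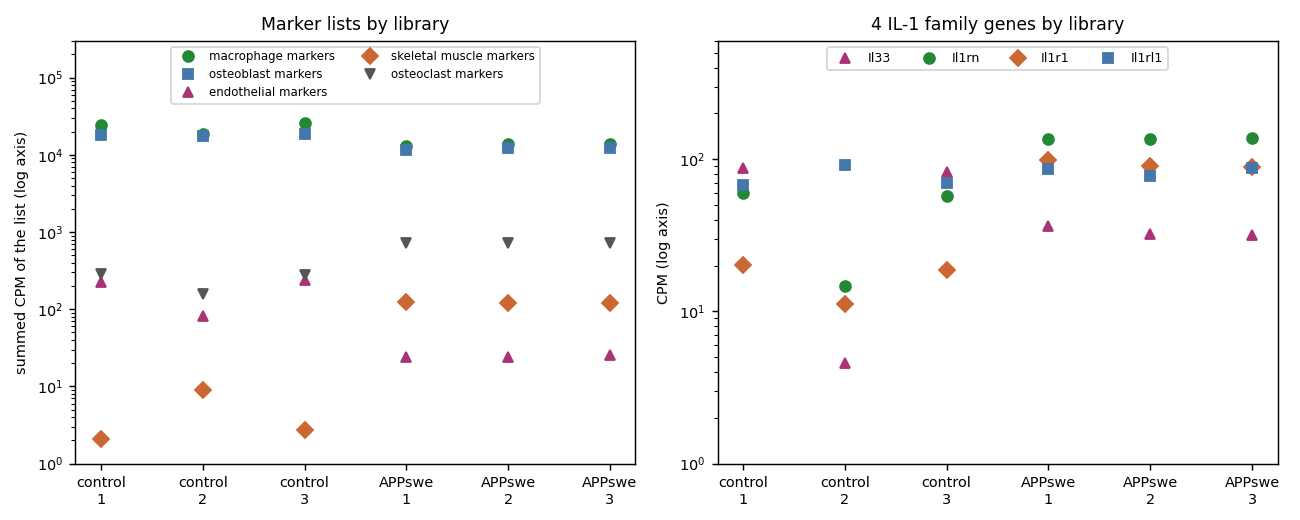
Summed CPM of 5 cell type marker lists (left, log axis) and CPM of 4 IL-1 family genes (right, log axis) in each of the 6 libraries, one symbol per list or gene. Control replicate 2 has the lowest Il33 and Il1rn of all libraries, and the 3 APPswe libraries lie close together on every list.

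Of the 10 family members, 8 passed the filter on low counts and 4 were called higher in APPswe libraries, Il1r1, Il1b, Il1rn and Il1rl2. None was called lower by edgeR, DESeq2 or limma, and 0 of them were lower even at an unadjusted p under 0.05. To be called, a gene had to reach an adjusted p of 0.05 or less in edgeR's quasi-likelihood test (Benjamini-Hochberg, 13484 genes) and a log2 fold change of 1 or more in either direction. By that rule 3.74% of all genes tested were called higher and 3.60% lower. Il1b passed the filter only through the APPswe libraries, where it is high, and Il1a and Il1r2 did not pass, so the count is a description of which members were called. Without control replicate 2 the same 4 genes were called higher and Il33 was called lower, with 4.87% of genes called higher and 6.58% lower in that fit. Control and APPswe libraries did not overlap for 5 members, all higher in APPswe (the 4 called genes and Il18), where 22.8% of all genes tested had separated groups in that direction and 22.2% in the other.

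**Figure D2:**
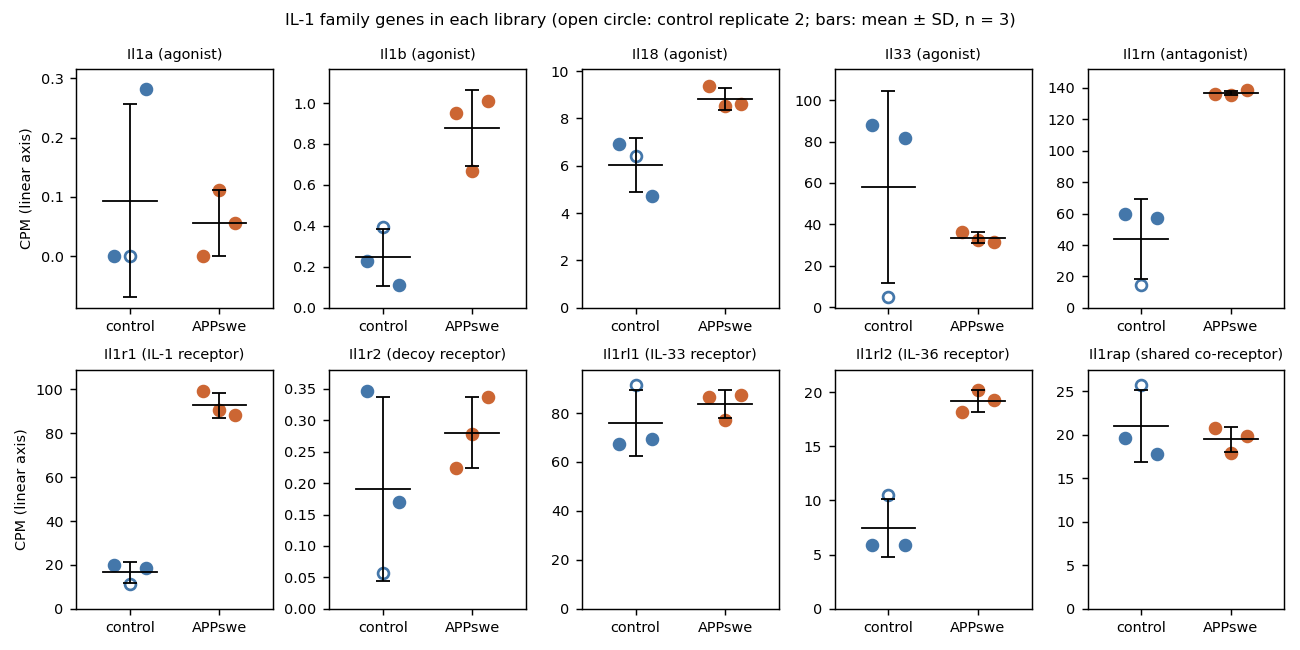
CPM (linear axes) of the 10 IL-1 family genes in each of the 3 control and 3 APPswe libraries, with the mean and SD of each group. The groups separate for Il1b, Il1rn, Il1r1, Il1rl2 and Il18, and the open circle of control replicate 2 lies far below the other control libraries for Il33 and Il1rn.

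On the authors' FPKM scale, which divides by gene length and so allows genes to be compared, the family had a different order in the 2 genotypes. In APPswe libraries Il1rn had the highest level (63.6 ± 0.56 FPKM, SD, n = 3), followed by Il1rl1 (28.5 ± 2.04), Il1r1 (21.2 ± 1.64), Il33 (15.1 ± 1.29), Il18 (11.0 ± 0.97), Il1rl2 (5.20 ± 0.23), Il1rap (4.94 ± 0.35), Il1b (0.81 ± 0.17), Il1r2 (0.28 ± 0.03) and Il1a (0.03 ± 0.04). Of the neighbours in that order, only Il1rl2 and Il1rap overlapped between libraries. In control libraries the order of the means was Il33 (24.8 ± 19.8 FPKM, SD, n = 3), Il1rl1 (24.1 ± 3.63), Il1rn (19.4 ± 11.2), Il18 (7.30 ± 1.74), Il1rap (5.17 ± 1.07), Il1r1 (3.66 ± 1.06), Il1rl2 (1.92 ± 0.70), Il1b (0.22 ± 0.13), Il1r2 (0.19 ± 0.14) and Il1a (0.05 ± 0.09). There, every pair of neighbours overlapped except Il1rl2 and Il1b, and the spread of Il33 and Il1rn came from control replicate 2. Il1r1 ranked below its co-receptor Il1rap in control and above it in APPswe libraries, and Il1b and Il1a were near the bottom of both orders.

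Il1r1, the signalling receptor for IL-1α and IL-1β, had the largest fold change of the family with all 6 libraries, and was second to Il1b without control replicate 2 (2.26 against 2.31 on the log2 scale). Its level was 20.2, 11.2 and 18.7 CPM in control replicates 1, 2 and 3, and 99.1, 90.5 and 88.4 CPM in APPswe replicates 1, 2 and 3. Every APPswe library was higher than every control library. The log2 fold change was 2.47 (standard error 0.21, 95% interval 1.96 to 2.98, edgeR adjusted p = 0.00103), a 5.54-fold higher level, and 2.26 (standard error 0.09) without control replicate 2 (edgeR adjusted p = 1.45e-08). The gene lies on the plus strand of chromosome 1 at chr1:40222480-40316201 (GRCm38). The 3 genes with the most similar profile over the 6 libraries, by Euclidean distance of centred log2 CPM among 12336 genes, were Ptgfr (distance 0.22), which encodes the prostaglandin F receptor, Ror1 (0.27), which encodes a receptor for Wnt ligands, and C1qtnf3 (0.28), which encodes a secreted C1q-related protein.

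Il1rl2, the IL-36 receptor subunit, lies next to Il1r1 at chr1:40324589-40367555 (plus strand). It was at 5.89, 10.5 and 5.87 CPM in control and at 18.2, 20.2 and 19.3 CPM in APPswe libraries, again without overlap. The log2 fold change was 1.37 (standard error 0.24, 95% interval 0.79 to 1.95, edgeR adjusted p = 0.0104), and 1.71 (standard error 0.11) without control replicate 2 (edgeR adjusted p = 6.25e-07). Control replicate 2 was the highest control library for Il1rl2 and the lowest for Il1r1. The call was narrowly lost without APPswe replicate 2 (edgeR adjusted p = 0.0541) and without APPswe replicate 3 (edgeR adjusted p = 0.0519), with log2 fold changes of 1.34 and 1.37. Its nearest profiles were those of Atp2b4, a plasma membrane calcium pump (distance 0.21), Gpr132, a G protein-coupled receptor (0.22), and Glipr2 (0.25).

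Promoter sequence is shown for Il1r1, Il1rl2 and Il1rn, 3 of the called genes, because they carry the change in receptor and antagonist levels and their windows hold a motif of factors known to act in IL-1 responses. Each line gives the 250 bases before a start site, 5′ to 3′ on the gene's strand, from RefSeq on GRCm38.p6, with the motif match in capitals.
Il1r1, first listed start, chr1:40224830-40225079, plus strand, C/EBP motif TTGCNNAA: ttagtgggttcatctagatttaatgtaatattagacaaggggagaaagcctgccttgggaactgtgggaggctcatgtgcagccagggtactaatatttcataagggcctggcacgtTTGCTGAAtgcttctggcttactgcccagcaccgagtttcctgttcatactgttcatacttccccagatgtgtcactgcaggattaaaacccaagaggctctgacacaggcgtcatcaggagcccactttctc
Il1r1, second listed start, chr1:40266336-40266585, plus strand, NF-kB consensus: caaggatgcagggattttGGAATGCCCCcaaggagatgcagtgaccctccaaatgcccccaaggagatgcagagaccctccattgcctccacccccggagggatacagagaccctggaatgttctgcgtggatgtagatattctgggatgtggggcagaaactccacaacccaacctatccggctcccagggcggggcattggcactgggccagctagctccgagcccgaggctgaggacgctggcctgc
Il1rl2, chr1:40324339-40324588, plus strand, C/EBP motif TTGCNNAA: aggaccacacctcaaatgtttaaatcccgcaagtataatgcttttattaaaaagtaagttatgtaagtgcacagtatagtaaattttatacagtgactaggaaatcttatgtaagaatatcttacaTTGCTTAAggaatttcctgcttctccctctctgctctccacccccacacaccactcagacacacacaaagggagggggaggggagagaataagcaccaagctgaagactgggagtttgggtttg
Il1rn, first listed start, chr2:24336610-24336859, plus strand, AP-1 motif TGANTCA: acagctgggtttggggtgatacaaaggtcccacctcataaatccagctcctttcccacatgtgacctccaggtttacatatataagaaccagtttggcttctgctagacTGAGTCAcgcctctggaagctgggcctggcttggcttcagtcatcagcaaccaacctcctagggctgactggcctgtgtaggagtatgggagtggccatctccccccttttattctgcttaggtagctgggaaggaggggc

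The C/EBP motif stood at -133 to -126 from the first Il1r1 start and at -124 to -117 from the Il1rl2 start. The NF-kB consensus stood at -232 to -223 from the second Il1r1 start on the opposite strand, and the AP-1 motif at -141 to -135 from the first Il1rn start. The bases just after the Il1rl2 start were not found in any GENCODE transcript of that gene, so its start is less certain. All 10 members matched the RefSeq promoter table, with 15 windows. Searched on both strands, the C/EBP motif was found in 4 of these windows, AP-1 in 2, the NF-kB consensus in 1 and the ETS core GAGGAA in 1. Among all 32851 promoter windows of the same length the shares were 9.56%, 6.75%, 7.25% and 23.3%. The other C/EBP matches were upstream of Il1rl1 and of Il33, neither of which was called with all 6 libraries, and the Il1b window held no match. These matches describe the letters in the windows, not bound sites.

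The receptor genes sit in a run of 6 neighbouring genes on the plus strand of chromosome 1, in the order Il1r2, Il1r1, Il1rl2, Il1rl1, Il18r1 and Il18rap, from chr1:40084692 to chr1:40551707. Of these, Il1r1 and Il1rl2 were called. Il1rl1, the IL-33 receptor (chr1:40404864-40465418), was at 67.2, 91.4 and 69.4 CPM in control and 86.5, 77.0 and 87.3 CPM in APPswe libraries, with control replicate 2 the highest of all. Its log2 fold change was 0.14 (standard error 0.13, 95% interval -0.18 to 0.45, edgeR adjusted p = 0.493). Without control replicate 2 it was 0.29 (edgeR adjusted p = 0.00905), past the p threshold but below the fold threshold. ST2 is abundant on mast cells. The 6 mast cell and basophil markers summed to 8.37, 1.12 and 7.28 CPM in control and 7.69 to 8.52 CPM in APPswe libraries, mostly from the basophil gene Mcpt8 (1.07 to 5.14 CPM in control and 7.24 to 8.02 CPM in APPswe, without overlap). Kit reached 3.12 CPM, and Cpa3, Mcpt4, Cma1 and Fcer1a were at no more than 0.17 CPM in any library. The part of these cells in the Il1rl1 level was not tested. Il18rap differed by -0.55 on the log2 scale, which missed the threshold (edgeR adjusted p = 0.231), and by -0.19 without control replicate 2 (edgeR adjusted p = 0.429). Il18r1, the ligand-binding IL-18 receptor chain, had at most 1 count in any library.

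The decoy receptor Il1r2 had 6, 1 and 3 counts in control and 4, 5 and 6 counts in APPswe libraries, at 0.06 to 0.35 CPM. The groups overlapped, the filter removed the gene, and no difference was detectable at this depth. The ratio of decoy to signalling receptor, Il1r2 to Il1r1 in FPKM, was 0.0721, 0.0204 and 0.0465 in control and 0.0113, 0.0131 and 0.0160 in APPswe libraries. It was lower in all 3 APPswe libraries, by 1.62 on the log2 scale (exact permutation test, two-sided p = 0.1, the smallest that 3 against 3 libraries can give). Il1r2 itself was at few counts in both groups, with means of 0.19 FPKM in control and 0.28 FPKM in APPswe libraries. The lower ratio therefore restates the higher Il1r1 and is no separate result on the decoy.

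Il1rap, the co-receptor shared by the IL-1, IL-33 and IL-36 receptors (chr16:26581509-26730128, plus strand), was at 19.6, 25.7 and 17.8 CPM in control and 20.7, 17.9 and 19.9 CPM in APPswe libraries. The groups overlapped, with a log2 fold change of -0.11 (standard error 0.16, 95% interval -0.48 to 0.26, edgeR adjusted p = 0.654). The sign turned, to 0.06, without control replicate 2. Il1r1 and its co-receptor had mean levels of 3.66 and 5.17 FPKM in control libraries, whereas in APPswe libraries Il1r1 stood at 21.2 and Il1rap at 4.94 FPKM. They were close in control replicates 1 (4.44 and 4.97 FPKM) and 3 (4.09 and 4.22 FPKM). In control replicate 2 they lay further apart, at 2.45 and 6.33 FPKM.

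**Figure D3:**
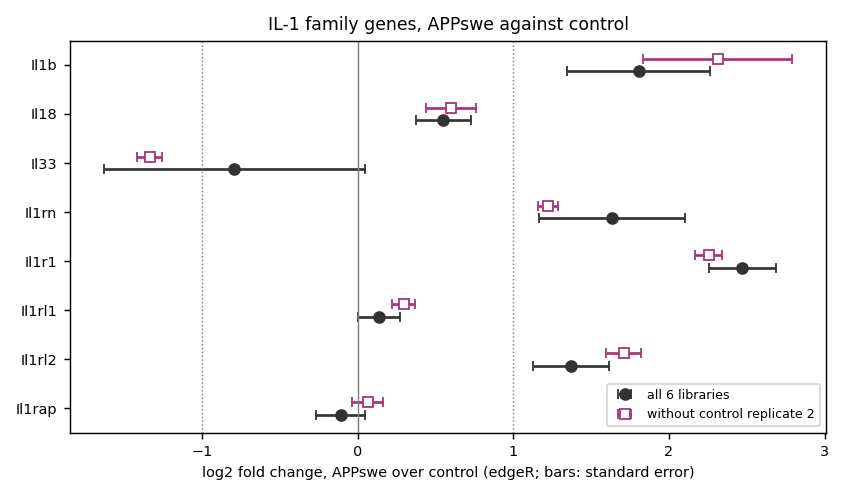
log2 fold change of APPswe over control (edgeR) for the 8 IL-1 family genes tested, with all 6 libraries (filled) and without control replicate 2 (open); bars are standard errors and dotted lines mark the fold threshold of 1 in either direction. Il1r1, Il1rl2, Il1rn and Il1b lie beyond the right line in both fits, and Il33 moves from -0.79 to -1.34.

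Il1b, the secreted agonist IL-1β (chr2:129364569-129371164, minus strand), was scarce in both genotypes. It had 4, 7 and 2 counts in control and 17, 12 and 18 in APPswe libraries, which is 0.23, 0.39 and 0.11 against 0.95, 0.67 and 1.01 CPM. The groups did not overlap. The log2 fold change was 1.81 (standard error 0.46, 95% interval 0.71 to 2.90, edgeR adjusted p = 0.0342) and 2.31 without control replicate 2 (edgeR adjusted p = 0.00243). Leaving out any other library ended the call (edgeR adjusted p from 0.0828 to 0.142) with log2 fold changes of 1.46 to 1.97, as did DESeq2 (log2 fold change 1.83, adjusted p = 0.0783). The antisense transcript Il1bos overlaps the gene, and whether the counting used strand is not given in the sources used here.

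Il1a (chr2:129299609-129310186, minus strand), which encodes IL-1α, had 0, 0 and 5 counts in control and 0, 2 and 1 in APPswe libraries. Of all libraries, control replicate 3 was the only library above the floor of 3 counts. No difference was detectable at this depth.

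Il1rn, which encodes the IL-1 receptor antagonist (chr2:24336860-24351491, plus strand), was at 60.1, 14.6 and 57.5 CPM in control and 136, 136 and 138 CPM in APPswe libraries. The APPswe libraries were nearly identical and all higher than the controls, of which replicate 2 was far below the others. The log2 fold change was 1.63 (standard error 0.47, 95% interval 0.52 to 2.75, edgeR adjusted p = 0.0485), a 3.10-fold higher level. Without control replicate 2 it was 1.22 with a standard error of 0.07 (edgeR adjusted p = 1.49e-07). Leaving out any other library ended the call (edgeR adjusted p from 0.0686 to 0.136), with log2 fold changes of 1.63 to 1.92. Within the libraries whose names share a style, which also share a pattern of blank FPKM cells, the log2 ratio of APPswe to control was 1.86 among names with a hyphen and 1.25 among names without, and taking the name style as a covariate gave a log2 fold change of 1.56 with an adjusted p of 0.0991 in edgeR. The nearest profiles were those of Gsta3, a glutathione transferase (distance 0.23), Mgarp, a mitochondrial protein (0.27), and Fbn2, which encodes fibrillin-2 (0.28).

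Il1rn rose while the macrophage marker sum was lower in every APPswe library than in every control library. Of the 14 macrophage markers, 10 had separated groups with APPswe lower (22.2% of all genes tested) and none with APPswe higher (22.8%). Among them 2 were called lower (3.60% of all genes tested). The median log2 fold change of the 14 markers was -0.77 against -0.003 over all genes tested. None was at 0 in any library, Cd163 being the lowest (0.17 to 1.04 CPM). Among 10 neutrophil markers, S100a9, Elane and Mpo were at 0 in all 3 control libraries and at most 0.56 CPM in APPswe libraries, Ly6g was at 0 in every library but control replicate 3 (0.11 CPM), and the sum (14.7 to 32.5 CPM in control, 43.7 to 48.2 CPM in APPswe) came mostly from Csf3r.

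The balance of antagonist to agonist, Il1rn over the sum of Il1a and Il1b in FPKM, was 127, 18.6 and 96.8 in control and 74.2, 89.9 and 65.2 in APPswe libraries. The groups overlapped, with a log2 difference of 0.31 (APPswe minus control, exact permutation test, two-sided p = 1.0, smallest possible 0.1). The direction rests on control replicate 2: without it the difference was -0.55. In all 6 libraries antagonist RNA exceeded agonist RNA by 18.6-fold or more. The agonist side rests on few counts, so the size of each ratio is uncertain. In control libraries Il1b had 4, 7 and 2 counts and Il1a 0, 0 and 5.

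Il18, which encodes the precursor of IL-18 (chr9:50554700-50581841, plus strand), was at 6.93, 6.41 and 4.74 CPM in control and 9.36, 8.52 and 8.60 CPM in APPswe libraries. The groups did not overlap, but the log2 fold change of 0.55 (standard error 0.18, 95% interval 0.13 to 0.97) missed both thresholds (edgeR adjusted p = 0.0660). Without control replicate 2 it was 0.60 (edgeR adjusted p = 0.0106), below the fold threshold. Il18 overlaps Bco2 and Tex12 on the opposite strand, so its reads are uncertain if strand was not used. For Il18bp, the secreted inhibitor of IL-18, the log2 difference was 0.08 (edgeR adjusted p = 0.809), and 0.22 without control replicate 2 (edgeR adjusted p = 0.267).

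Il33, a nuclear alarmin of stromal and endothelial cells (chr19:29925113-29960718, plus strand), showed the widest spread of the family. It was at 87.8, 4.61 and 81.8 CPM in control and 36.4, 32.5 and 31.6 CPM in APPswe libraries. The APPswe libraries lay between control replicate 2 and the other controls, so the groups overlapped. The log2 fold change was -0.79 with a standard error of 0.84 (95% interval -2.79 to 1.20, edgeR adjusted p = 0.529). Without control replicate 2 it was -1.34 with a standard error of 0.08 (edgeR adjusted p = 3.58e-07), and Il33 was then called lower. Among names with a hyphen, which include control replicate 2, the log2 ratio was -0.34, and among names without it -1.35.

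The 6 endothelial markers, whose sum was 228, 81.8 and 243 CPM in control and 23.9 to 25.6 CPM in APPswe libraries, did not move as a group with control replicate 2. Pecam1, Cdh5, Emcn and Tek were lower in control replicate 2 than in the other controls (0.06 to 0.79 against 2.99 to 68.8 CPM), and Kdr and Vwf were higher there (25.5 and 55.0 CPM, against 10.9 to 12.6 and 38.2 to 46.8 CPM). The sum of the 7 fibroblast markers was lowest in control replicate 2 (1538 CPM, against 3185 and 3178 in the other controls) and highest in APPswe libraries, where Il33 was not. Most of that sum was Col3a1, at 2108, 1134 and 2157 CPM in control and 4744 to 4888 CPM in APPswe libraries. Dcn was at 520, 55.8 and 474 CPM in control and 222 to 253 CPM in APPswe libraries. Dcn, Lum and Dpt had the order of Il33, with APPswe libraries between control replicate 2 and the other controls. Col3a1, Pdgfra, Thy1 and Pi16 did not. Of the 7 fibroblast markers, Col3a1 and Pdgfra were called higher in APPswe libraries and 0 lower (3.74% and 3.60% of all genes tested). Without control replicate 2, where 4.87% of all genes were called higher and 6.58% lower, Col3a1 and Pdgfra were still called higher. Dcn was then called lower (log2 fold change -1.08, edgeR adjusted p = 7.71e-07). The median log2 fold change of the list turned from 0.22 to -0.07. The part of either cell type in the Il33 levels was not tested. The nearest profiles to Il33, named after its values were seen, were those of Lbp, which encodes the lipopolysaccharide-binding protein (distance 0.36), Adgrf5 (0.54) and Akr1c18 (0.59). Lbp was at 75.8, 3.88 and 76.8 CPM in control and 36.3, 36.5 and 33.9 CPM in APPswe libraries.

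The other members of the family gave no call. Of 15 further ligands, receptors and inhibitors, 9 were in the count table, 4 passed the filter and 0 were called, with a median log2 fold change of -0.004 (edgeR adjusted p of at least 0.231) that turned to 0.19 without control replicate 2. Il1f9, the IL-36γ gene and thus a ligand of Il1rl2, was at 0.22 to 0.73 CPM. Sigirr, an inhibitory receptor, had a log2 fold change of -0.08, which turned to 0.15 without control replicate 2, and neither passed the test.

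The cytoplasmic signalling chain behind these receptors was present in full. Of its 27 genes, 1 was called higher and 0 lower, where 3.74% and 3.60% of all genes tested were called. The called gene was Fos, an AP-1 subunit, at 40.4, 22.1 and 45.0 CPM in control and 85.2, 97.1 and 90.8 CPM in APPswe libraries (log2 fold change 1.34, edgeR adjusted p = 0.0119). By adjusted p alone, which 10.5% of all genes tested passed in the higher and 12.0% in the lower direction, 3 were higher and 1 was lower. Mapk8 (JNK1) and Ikbkg (NEMO) were higher by 0.48 and 0.37 on the log2 scale, and Jun, the partner of Fos, had a log2 fold change of -0.43. The median of the 27 was -0.01, beside -0.003 over all genes tested, and 0.02 without control replicate 2.

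Of 12 genes that mature and release IL-1β and IL-18, 0 were called and 5 were lower by adjusted p alone, against 12.0% of all genes tested. Their median log2 fold change was -0.24, and -0.13 without control replicate 2. For Nlrp3, the inflammasome sensor, the log2 difference was -0.72 (37.0 ± 2.10 against 22.4 ± 1.08 CPM, SD, n = 3; edgeR adjusted p = 0.00304). Pycard, the adaptor ASC, had -0.53 and Casp1, the protease that cleaves both precursors, had -0.41 (edgeR adjusted p = 0.0406). P2rx7, the ATP receptor that triggers the inflammasome, had -0.34. Nlrp3, Pycard, Casp1 and P2rx7 moved in the direction of most macrophage markers given above. Gsdme went the other way, by 0.56 with separated groups (edgeR adjusted p = 0.0985). Without control replicate 2 its log2 difference was 0.80 (edgeR adjusted p = 0.000491). Casp8, Nlrc4, Casp4 and Gsdmd had log2 differences of 0.10 to 0.24, none past the p threshold with all 6 libraries. The part of macrophages in these values was not tested.

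Among 24 genes known to respond to IL-1 in stromal cells, 21 were tested, 5 were called higher and 2 lower (3.74% and 3.60% over all genes tested), with a median log2 fold change of 0.18. The chemokine genes Cxcl5 (log2 fold change 3.16, standard error 0.13, edgeR adjusted p = 0.000287) and Cxcl1 (2.32), the metalloreductase gene Steap4 (2.66), the RANKL gene Tnfsf11 (2.60) and the cytokine gene Il6 (1.99) were higher. Cxcl5 had 145 to 180 counts in control and 1325 to 1651 in APPswe libraries, and Tnfsf11 had 20 to 30 and 138 to 157. Ccl2, a monocyte chemokine gene, and Icam1, an adhesion molecule gene, were lower, with log2 fold changes of -1.37 and -1.34. The list therefore did not move as a whole: Ccl2 was at 172 ± 7.69 CPM in control and 66.5 ± 2.08 CPM in APPswe libraries (SD, n = 3; edgeR adjusted p = 0.000296), while Cxcl1 was at 3.76 ± 1.57 and 18.8 ± 0.92 CPM (edgeR adjusted p = 0.00405). Without control replicate 2, 7 were called higher and 5 lower (4.87% and 6.58% over all genes), with a median of 0.10. Steap4 was at 5 counts in control replicate 2 and 57 to 76 in the other controls, so its size depends on that library (2.13 without it).

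**Figure D4:**
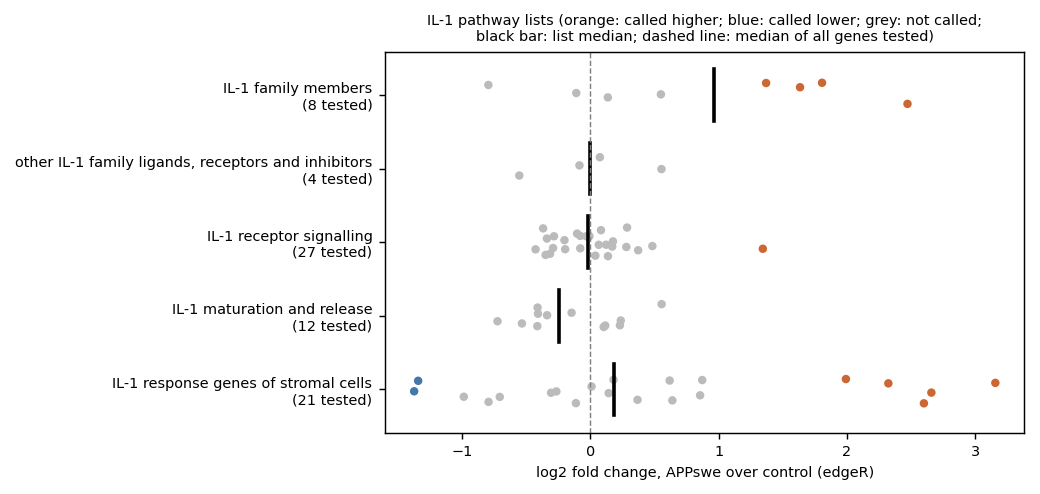
log2 fold change of APPswe over control (edgeR) for each tested gene of the IL-1 family and 4 related lists, with list medians as black bars and the median of all genes tested as a dashed line. The family members and the response genes hold most of the called genes (orange higher, blue lower), and the signalling list holds 1.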

How the data were processed

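Bulk RNA sequencing of 3 control and 3 APPswe libraries was analysed, with groups and replicate numbers from the sample labels. Libraries were made with a SMARTER mRNA kit and sequenced on DNBseq, and the submitters' processing notes name the build GRCm38. The aligner, the counting tool and its strand setting are not given in the sources used here. The authors deposited raw read counts per gene. They also deposited FPKM values of their own making, with blank cells in 397 genes for libraries with a hyphen in their names (control 1 and 2, APPswe 1) and in 716 genes for those without (control 3, APPswe 2 and 3), and blanks were read as 0. The authors' deposited comparison columns (log2 fold changes and p-values) were not used.

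Counts were normalized by TMM and tested with the quasi-likelihood test of edgeR 4.0.16 (R 4.3.3), with genotype as the only term and all 6 libraries. The filterByExpr function kept 13484 of 17830 genes, with Benjamini-Hochberg adjustment of the p-values over these. Calls needed an adjusted p no higher than 0.05 together with a log2 fold change of 1 or more in size. The standard error is the size of the log2 fold change over the square root of F, and 95% intervals use the test's total degrees of freedom, prior included. CPM values are TMM-scaled. The 2 ratios of FPKM values were compared by exact permutation over libraries. Nearest profiles were ranked by Euclidean distance of centred log2(CPM + 0.5) among genes whose mean log2 CPM reached 1. The 3 nearest of the called members Il1r1, Il1rl2 and Il1rn were named, and those of Il1b, also called, were not. Of each pathway list, called genes were counted and at most 4 with the largest change given values. Genes outside this rule (Il6, Mapk8, Ikbkg, Jun, Nlrp3, Pycard, Casp1, P2rx7, Gsdme, Casp8, Nlrc4, Casp4, Gsdmd, Il18rap, Il18bp, Sigirr, Il1f9, Ccl2, Icam1 and the neighbours of Il33) were named after their values were seen. The members and the gene lists were chosen with earlier results of these data known. The tests were tested on simulated data with known changes. No pair among the 15 possible agreed within counting error. The closest pair, APPswe replicates 2 and 3, had a chi-square over its degrees of freedom of 1.59. The other APPswe pairs had 7.38 and 7.90, and the control pairs 6.17 to 80.8. Every library was counted as a replicate, although a spread beyond counting error does not show that libraries came from separate animals or cultures. If APPswe replicates 2 and 3 did not, the p-values are too small. Alternatives were other size factors, filters and thresholds, DESeq2 1.42.0, limma 3.58.1 on log2(FPKM + 1) or log2(FPKM + 0.1), a replicate block, the name style as covariate and each library left out. Values within a name style were added after seeing the data. Promoter windows and gene positions are from RefSeq GRCm38.p6.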

Additional observations from a re-analysis of the deposited data

How the results depend on the processing

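Il1r1 was called higher under every alternative that gives a test, with adjusted p up to 0.0125 and log2 fold changes, the values within a name style included, from 2.25 to 2.66. The number of family members called higher, 4, stayed within 1.5 times under 10 of 17 alternatives, was 2 with the replicate block (Il1r1 and Il1rl2) and 1 at an adjusted p of at most 0.01 (Il1r1), and ranged from 1 to 4 with each library left out. The number called lower ranged from 0 to 1 with each library left out, the 1 being Il33 without control replicate 2. DESeq2 called 3 members higher. The Il1b call was also lost with the replicate block (adjusted p = 0.101), as was that of Il1rn (adjusted p = 0.0685), and with limma on log2(FPKM + 1), where its log2 fold change was 0.57. Il33 turned to 0.0026 with limma on log2(FPKM + 1) and to 0.12 on log2(FPKM + 0.1), neither past the threshold (adjusted p = 0.999 and 0.950), and Il1rap, which ranged from -0.22 to 0.063 with each library left out, to 0.063 without control replicate 2 and to 0.085 among names without a hyphen. The log2 difference of the antagonist to agonist ratio ranged from -0.55 to 0.84 with each library left out and was -0.55, reversed, without control replicate 2, and that of the Il1r2 to Il1r1 ratio from -2.12 to -1.21. In the paired form the exact p of the Il1r2 to Il1r1 ratio was 0.25. The cause of these changes was not tested.

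Over all genes, 281 to 1414 were called higher and 185 to 1622 lower across the alternatives, against 504 and 486. The counts were 320 and 412 with at least 10 counts in every library, 316 and 185 with limma on log2(FPKM + 1), 556 and 313 on log2(FPKM + 0.1), 294 and 240 at the stricter adjusted p of 0.01, and 384 and 324 with the replicate block. Control replicate 2 gave 670 and 905 when left out, and leaving out APPswe replicate 1, 2 or 3 gave 317, 291 and 281 higher and 242, 237 and 230 lower. Same-numbered libraries deviated together with correlations of 0.08, -0.04 and 0.19, so the replicate numbers were not taken as pairs. Depth limits Il1a, Il1r2 and Il1b, which had at most 18 counts in any library.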
